A study of Mus musculus with 8 samples.

Results

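The integrated stress response factors described here are 10 genes that were chosen by name: Atf4, Atf3, Atf5, Ddit3, Cebpb, Trib3, Chac1, Sesn2, Nupr1 and Ppp1r15a. They matched 11 of the 56748 rows of the deposited table, since Ddit3 is listed under 2 gene identifiers. Of the 10 genes, 8 passed the filter on low values, which kept genes that reached 1 FPKM in 2 or more of the 8 libraries, and Atf3 and Chac1 did not. FPKM is the number of fragments on a gene per kilobase of its length, scaled to the library, so that levels of different genes can be set side by side.

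The RNA came from 32D, a mouse myeloid cell line that grows on interleukin-3 and had been transduced with murine Jak2WT or Jak2V617F, the constitutively active kinase of myeloproliferative neoplasms. In each background, 2 clones with intact glucose transporters (GLUT1/3 WT) and 2 clones with CRISPR-Cas9 disruption of both Slc2a1 and Slc2a3 (GLUT1/3 dKO) were sequenced, numbered 1 and 3 in every group. All 4 groups were kept for 24 h in low-supplement medium that held 2 ng/ml IL-3, glucose at 5 mM and glutamine at 1 mM. Each clone grew from a single cell and gave 1 library, so the p-values below measure the spread between clones, and a difference between groups cannot be told apart from differences that clones carried before editing. The paper describes a single-cell dilution before editing and lists the same Slc2a1 deletion for all dKO clones of a background. The 2 dKO clones of a group may therefore share an edited cell, and their spread may then be smaller than that of independent clones.

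In the integrated stress response, kinases that sense unfolded protein, missing amino acids, double-stranded RNA or lack of heme phosphorylate the initiation factor eIF2. Protein synthesis then falls as a whole while the mRNA of the transcription factor ATF4 is translated more, and ATF4 raises genes of amino acid uptake and synthesis together with its own partners and brakes. Much of the control of ATF4 lies in translation, which mRNA levels do not show. In hematopoietic cells the pathway is best known for matching globin synthesis to heme and for the survival of stem cells under stress.

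The promoters of the members are shown first, since Atf3 and Chac1, the members that were almost unread, carry the same element as a member that was read in every library. The element bound by ATF4 with a C/EBP partner was searched as TGATGNAA on both strands, from 250 bases before to 50 bases after the start of the canonical transcript in GRCm39, the build of the deposited table. It was found for 3 of the 10 members, Atf3, Ddit3 and Chac1, and for 837 of 21770 protein-coding genes (3.84%). With 500 bases before the start it was also found for Sesn2, and for 7.2% of all protein-coding genes. The stretches below read 5′ to 3′ on the strand of the gene, with the element in capitals and 20 bases on either side, or up to the start of the transcript where that is nearer.
Atf3, chr1:190915613-190915660, reverse strand: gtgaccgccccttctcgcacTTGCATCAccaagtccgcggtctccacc
Ddit3, chr10:127126341-127126388, forward strand: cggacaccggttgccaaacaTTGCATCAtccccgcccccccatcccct
Chac1, chr2:119181510-119181557, forward strand: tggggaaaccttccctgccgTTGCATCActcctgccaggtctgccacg
Sesn2, chr4:132238044-132238091, reverse strand: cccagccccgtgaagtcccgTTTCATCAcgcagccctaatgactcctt

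All 4 matches lie on the strand opposite to the gene, and those of Atf3, Ddit3 and Chac1 are letter for letter the same. They begin 103, 199, 159 and 256 bases before the start of Atf3, Ddit3, Chac1 and Sesn2. The cAMP response element, searched as TGACGTCA, which reads the same on both strands, was found in 1 member, 12 bases before the start of Ppp1r15a, and in 2.44% of all promoters from 250 bases before to 50 bases after the start. No match of these elements overlapped another in a member. These are matches of letters only. No match of either was found within 500 bases before the start of Atf4, Atf5, Cebpb, Trib3 or Nupr1, which says nothing of sites elsewhere. The canonical starts of Atf3 and Nupr1 lie well inside the deposited spans of these genes.
Ppp1r15a, chr7:45175693-45175724, reverse strand: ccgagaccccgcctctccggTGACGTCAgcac

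Slc2a1 lay at 44.7 and 48.4 FPKM in the Jak2WT GLUT1/3 WT clones and at 9.47 and 9.17 in the Jak2WT dKO clones, and at 64.0 and 53.0 against 17.3 and 12.7 in Jak2V617F. Slc2a3 lay at 97.7 and 91.9 against 16.0 and 49.5 in Jak2WT and at 198 and 166 against 48.2 and 23.8 in Jak2V617F, so the targeted transcripts were lower in every dKO library. Reads on genes per library ranged from 16846011 to 48884329. The labels call 32D myeloblast-like, but of 7 myeloblast markers only Prtn3 and Spi1 reached 1 FPKM, Kit was listed at 0 in all 8 libraries, and Mpo stayed under 0.1. Markers of other lineages moved with the groups. The summed FPKM of 8 erythroid genes was 63.1 to 83.2 in Jak2WT GLUT1/3 WT, 221 to 262 in Jak2WT dKO, 505 to 852 in Jak2V617F GLUT1/3 WT and 2548 to 4638 in Jak2V617F dKO. That of 5 genes of maturing neutrophils was 70.3 to 210.2 in the Jak2WT libraries and 1.54 to 14.3 in the Jak2V617F libraries. The neutrophil sums overlapped between GLUT1/3 WT and dKO within each background. That of 5 megakaryocyte genes was 65.0 to 65.7 in Jak2WT GLUT1/3 WT, 89.4 to 94.3 in Jak2WT dKO, 183 to 193 in Jak2V617F GLUT1/3 WT and 194 to 249 in Jak2V617F dKO. That of 4 macrophage genes was 52.2 to 72.9 in the first 3 of these groups and 21.9 to 26.4 in Jak2V617F dKO. That of 5 mast cell or basophil genes was 202 to 218 in Jak2WT GLUT1/3 WT and 156 to 164 in Jak2V617F GLUT1/3 WT, and 167 to 222 and 121 to 162 in the dKO groups of these backgrounds. Of these genes Cpa3 was at 50.8 to 100.5 FPKM in Jak2WT and at 0 to 1.67 in Jak2V617F. The erythroid and megakaryocyte sums thus did not overlap between the groups of any comparison below, and the part of these lists in the results was not tested.

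Among the members, Atf4 was the highest in all 8 libraries, at 106 to 182 FPKM, and Nupr1 was the lowest of those tested. Trib3, Sesn2, Ppp1r15a, Atf5, Ddit3 and Cebpb lay between 8.81 and 53.8 FPKM. Atf3, an immediate early and stress-induced partner of other bZIP factors, had 3 reads in all libraries together, 2 of them in Jak2WT GLUT1/3 WT clone 1 and 1 in Jak2V617F GLUT1/3 WT clone 3. Its highest level was 0.0234 FPKM. Chac1, an enzyme that breaks down glutathione and a common readout of ATF4 with CHOP, was listed at 0 in every library, where 3 reads would have given 0.0372 to 0.106 FPKM. The second Ddit3 row, a model of 105 bases inside the span of the first, was also listed at 0. Atf3 and Chac1 thus did not reach 3 reads in any library, and no comparison was made for them.

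**Figure D1:**
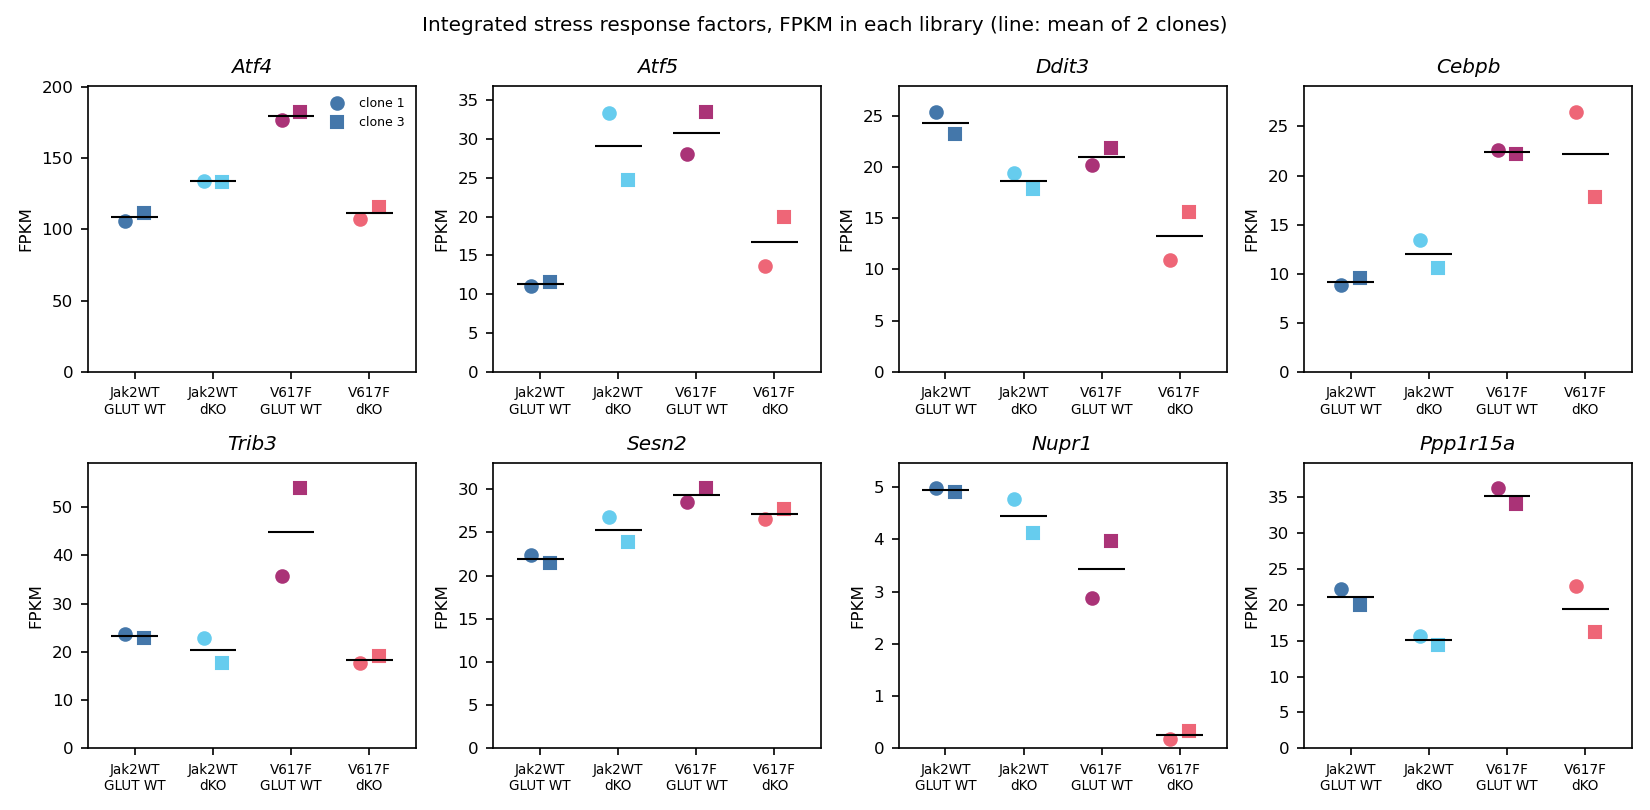
FPKM of the 8 members tested in each library, by group on the horizontal axis, with circles for clone 1, squares for clone 3 and a line at the mean of the 2 clones. Atf4, Trib3 and Ppp1r15a stand highest in the Jak2V617F GLUT1/3 WT clones, and Nupr1 is near 0 in the Jak2V617F dKO clones alone.

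The GLUT1/3 WT clones compare the backgrounds without the knockout, where the mutant kinase cannot be told apart from other differences between the lines. With both transporters intact, 6 of the 8 members tested were higher in Jak2V617F than in Jak2WT and 0 were lower, against 15.3% of all 11818 genes tested that were higher and 14.9% that were lower. The test was limma on log2(FPKM + 1) over all genes, with Benjamini-Hochberg adjustment at 0.05. The members that rose were Atf4, Atf5, Cebpb, Trib3, Sesn2 and Ppp1r15a. The median difference over the 8 members was 0.72 on the log2 scale and that over all genes tested 0.01. In bulk RNA, a change of level in each cell and a change in how many cells hold the transcript cannot be told apart. For the count of 0 lower, 1 member, Nupr1, had an unadjusted p under 0.05, and limma voom on recovered reads also called that 1.

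Atf4, the transcription factor at the centre of the response, stood at 106 and 111 FPKM in the Jak2WT clones and at 177 and 182 in the Jak2V617F clones. The groups did not overlap, and the mutant clones were 1.65-fold higher, with a log2 difference of 0.72 ± 0.08 (SE) and an adjusted p of 0.00122. Atf5, a related bZIP factor that is translated in the same way and serves the mitochondrial stress response, rose from 11.1 and 11.6 to 28.1 and 33.5 FPKM (log2 difference 1.36 ± 0.20, adjusted p = 0.00326). Cebpb, a C/EBP factor of myeloid differentiation that also pairs with ATF4, rose from 8.81 and 9.54 to 22.6 and 22.2 FPKM (1.20 ± 0.18, adjusted p = 0.00357). These 3 transcription factors remained past the threshold in all 15 alternative fits.

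Trib3, a pseudokinase that ATF4 induces and that restrains ATF4 in turn, was at 23.8 and 22.9 FPKM in Jak2WT and at 35.7 and 53.8 in Jak2V617F, so that the mutant clones were both higher but lay far apart (log2 difference 0.88 ± 0.19, adjusted p = 0.0134). Ppp1r15a, known as GADD34, which brings a phosphatase to eIF2 and so ends the response, was at 22.1 and 19.9 against 36.2 and 34.1 FPKM (0.71 ± 0.15, adjusted p = 0.0108). Sesn2, an ATF4 target that senses leucine and dampens mTORC1, rose 1.33-fold, from 22.4 and 21.5 to 28.5 and 30.1 FPKM (0.40 ± 0.08, adjusted p = 0.0118). Trib3 lost its call with no filter (adjusted p = 0.0565) and without either Jak2WT GLUT1/3 WT clone (0.0587 without clone 1 and 0.0716 without clone 3). Sesn2 lost it without the same clones (0.0568 and 0.0827) and without Jak2V617F GLUT1/3 WT clone 3 (0.0519). Ppp1r15a lost it without Jak2WT GLUT1/3 WT clone 3 (0.0704) or Jak2V617F GLUT1/3 WT clone 1 (0.0548), and with libraries scaled to the same total Sesn2 was at an adjusted p of 0.0645.

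Ddit3 and Nupr1 did not follow. Ddit3, which encodes the pro-apoptotic factor CHOP, was at 25.4 and 23.2 FPKM in Jak2WT and at 20.2 and 21.8 in Jak2V617F (log2 difference -0.20, 95% interval -0.55 to 0.15, adjusted p = 0.347). Nupr1, a small stress-induced chromatin protein, was at 4.97 and 4.91 against 2.88 and 3.98 FPKM (-0.43, 95% interval -0.78 to -0.09, adjusted p = 0.0591).

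Loss of both transporters in the Jak2V617F background went with lower levels. Of the 8 members tested, 6 were lower in the dKO clones and 0 were higher, against 16.2% of all genes that were lower and 13.7% that were higher, and their median difference was -0.77 against -0.02 over all genes. The count of 0 higher was also 0 at an unadjusted p under 0.05 in limma and 0 in voom. This comparison shares its GLUT1/3 WT clones with the one above, so the values of the 2 comparisons are not independent.

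Atf4 fell from 177 and 182 to 107 and 115 FPKM, which was 1.61-fold lower in the dKO clones (log2 difference -0.69 ± 0.08, adjusted p = 0.00129). The dKO clones lay close to the 106 and 111 FPKM of the Jak2WT GLUT1/3 WT clones. Trib3 fell 2.43-fold, from 35.7 and 53.8 to 17.7 and 19.1 FPKM (-1.21 ± 0.19, adjusted p = 0.00426). Ppp1r15a fell from 36.2 and 34.1 to 22.6 and 16.2 FPKM (-0.84 ± 0.15, adjusted p = 0.00586). In each of these genes the dKO and GLUT1/3 WT clones did not overlap.

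Nupr1 showed the steepest fall of the members. Its GLUT1/3 WT clones were at 2.88 and 3.98 FPKM, from 155 and 298 reads, and its dKO clones at 0.172 and 0.331 FPKM, from 15 and 21 reads. The means differed 13.6-fold. On the log2(FPKM + 1) scale, which compresses low levels, the difference was -1.81 ± 0.15 with an adjusted p of 0.000463, and with a pseudocount of 0.1 it was -3.35. In the other 6 libraries Nupr1 stayed between 2.88 and 4.97 FPKM, and the 2 Jak2V617F dKO clones did not overlap them.

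Atf5 fell from 28.1 and 33.5 to 13.6 and 20.0 FPKM (log2 difference -0.86 ± 0.20, adjusted p = 0.0177), and Ddit3 from 20.2 and 21.8 to 10.9 and 15.6 FPKM (-0.64 ± 0.15, adjusted p = 0.018). Both lost the call in 4 of 15 alternatives, among them the fit without Jak2V617F GLUT1/3 WT clone 3 (adjusted p = 0.0829 for Atf5 and 0.077 for Ddit3), Atf5 also without Jak2V617F dKO clone 1 (0.0668) and Ddit3 without Jak2V617F GLUT1/3 WT clone 1 (0.0556). Cebpb and Sesn2 did not pass. Cebpb was at 22.6 and 22.2 FPKM in the GLUT1/3 WT clones and at 26.5 and 17.8 in the dKO clones, one on either side (-0.04, 95% interval -0.46 to 0.38, adjusted p = 0.886). Sesn2 was at 28.5 and 30.1 against 26.5 and 27.7 FPKM (-0.11, 95% interval -0.30 to 0.09, adjusted p = 0.371).

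**Figure D2:**
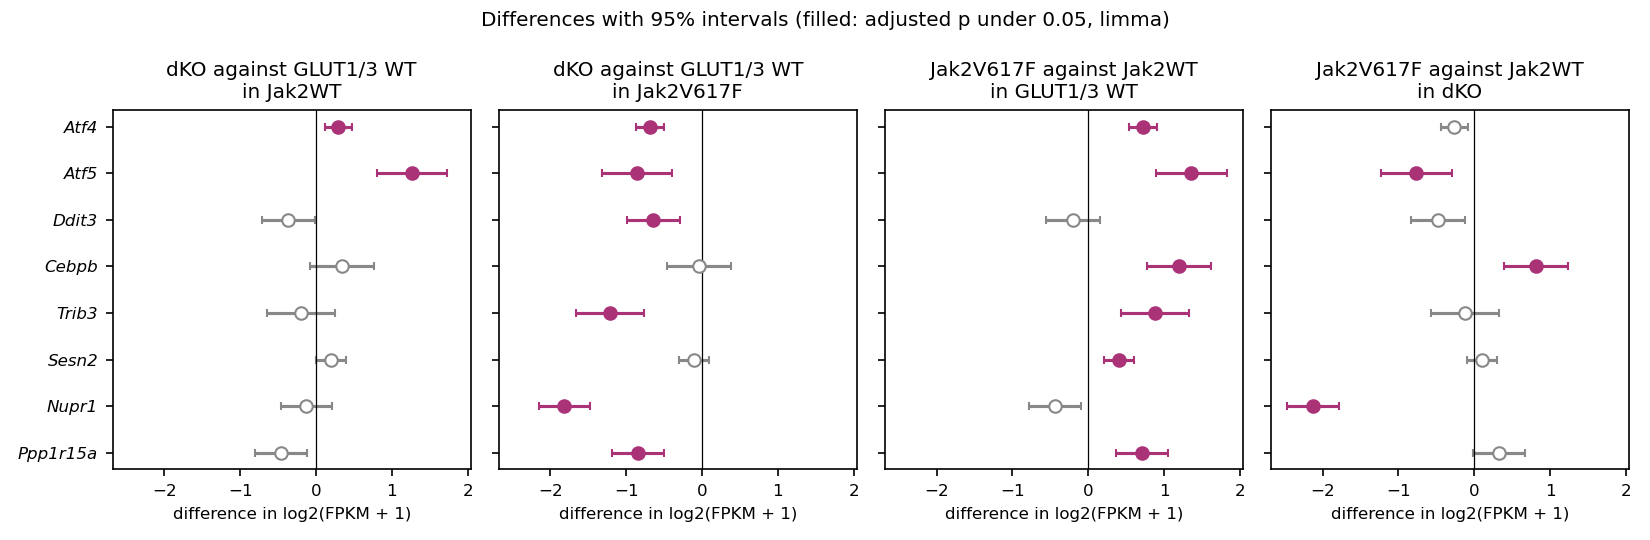
Differences in log2(FPKM + 1) of the 8 members in the 4 comparisons between groups of 2 clones, with 95% intervals from limma and filled points where the adjusted p was under 0.05. Atf4 and Atf5 lie right of 0 with dKO in Jak2WT and left of 0 with dKO in Jak2V617F, and Cebpb is higher with Jak2V617F in both comparisons of backgrounds.

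In Jak2WT cells the same disruption gave another picture. Of the 8 members, 2 were higher in the dKO clones, Atf4 and Atf5, and 0 were lower, against 7.62% of all genes that were higher and 6.06% that were lower. The median difference of the members was 0.04 and that of all genes 0.01. For the count of 0 lower, 2 members had an unadjusted p under 0.05 in limma and voom called 2, Ddit3 and Ppp1r15a in both.

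Atf5 was at 11.1 and 11.6 FPKM in the Jak2WT GLUT1/3 WT clones and at 33.4 and 24.7 in the dKO clones, 2.56-fold higher (log2 difference 1.27 ± 0.20, adjusted p = 0.0108). Atf4 was at 106 and 111 against 134 and 133 FPKM, 1.23-fold higher (0.30 ± 0.08, adjusted p = 0.0461). The call on Atf4 was lost in 10 of 15 alternatives, with adjusted p from 0.0386 to 0.243 over all 15, including 6 of the 8 fits that left out 1 library. Atf5 lost its call without Jak2WT GLUT1/3 WT clone 1 (0.0769) or clone 3 (0.0669) and without Jak2WT dKO clone 1 (0.0705).

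Of the others, Ppp1r15a was at 22.1 and 19.9 against 15.6 and 14.5 FPKM (log2 difference -0.46 ± 0.15, adjusted p = 0.079), and Ddit3 at 25.4 and 23.2 against 19.5 and 17.8 FPKM (-0.36 ± 0.15, adjusted p = 0.147). The clones of the groups did not overlap in these genes, and both passed the threshold in voom, Ddit3 barely (adjusted p = 0.0208 for Ppp1r15a and 0.04996 for Ddit3). Trib3 was at 23.8 and 22.9 against 23.0 and 17.7 FPKM, Nupr1 at 4.97 and 4.91 against 4.78 and 4.12, Sesn2 at 22.4 and 21.5 against 26.8 and 23.9, and Cebpb at 8.81 and 9.54 against 13.4 and 10.6. Their adjusted p ran from 0.159 to 0.597.

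Whether the change with dKO differed between the backgrounds was tested by the interaction, the change in Jak2V617F minus the change in Jak2WT. It was negative past the threshold for 3 members, Atf4, Atf5 and Nupr1, and positive for 0, where 5.91% and 4.72% of all genes were called. No member was positive at an unadjusted p under 0.05 in limma or called positive in voom. The interaction of Atf5 was -2.12 ± 0.28 (adjusted p = 0.0116), that of Nupr1 -1.69 ± 0.21 (adjusted p = 0.00959) and that of Atf4 -0.98 ± 0.11 (adjusted p = 0.00867). Trib3 followed at -1.01 ± 0.27 with an adjusted p of 0.0571. For Ddit3 the interaction was -0.28 (95% interval -0.78 to 0.22) and for Ppp1r15a -0.39 (-0.87 to 0.10), so a difference between the backgrounds was not detectable for these genes. The 3 calls were lost together without Jak2WT GLUT1/3 WT clone 1 (adjusted p = 0.0502 for Atf4, 0.0539 for Atf5 and 0.0502 for Nupr1), without Jak2WT GLUT1/3 WT clone 3 (0.0523, 0.06 and 0.0597) and without Jak2WT dKO clone 1 (0.0501, 0.0503 and 0.0503).

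Among the dKO clones, Jak2V617F and Jak2WT differed in 3 members. Cebpb was higher in Jak2V617F, at 26.5 and 17.8 against 13.4 and 10.6 FPKM (log2 difference 0.82 ± 0.18, adjusted p = 0.0224). Nupr1 was lower, at 0.172 and 0.331 against 4.78 and 4.12 FPKM (-2.12 ± 0.15, adjusted p = 0.000366), and Atf5 was lower, at 13.6 and 20.0 against 33.4 and 24.7 FPKM (-0.77 ± 0.20, adjusted p = 0.0392). These counts, 1 higher and 2 lower, stood against 7.12% and 9.96% of all genes. Atf4, at 107 and 115 against 134 and 133 FPKM, had a difference of -0.26 ± 0.08 and an adjusted p of 0.0584. Atf5 lost its call in 11 of 15 alternatives (adjusted p 0.0163 to 0.206) and Cebpb in 5 (0.00445 to 0.119), including for both genes the fits without Jak2WT dKO clone 1, Jak2WT dKO clone 3 or Jak2V617F dKO clone 1. Without Jak2V617F dKO clone 3, Ddit3 (0.00837) and Ppp1r15a (0.018) gained a call, Ddit3 as lower and Ppp1r15a as higher in Jak2V617F.

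The order of the group means therefore differed by gene. For Atf4 it ran from Jak2V617F GLUT1/3 WT (180 ± 3.75 FPKM, SD, n = 2) over Jak2WT dKO (134 ± 0.205) and Jak2V617F dKO (111 ± 5.90) to Jak2WT GLUT1/3 WT (109 ± 3.94), and the last 2 differed by less than their spread. For Atf5 the Jak2V617F GLUT1/3 WT mean (30.8 ± 3.83) and the Jak2WT dKO mean (29.1 ± 6.15) lay within each other's spread, above Jak2V617F dKO (16.8 ± 4.50) and Jak2WT GLUT1/3 WT (11.4 ± 0.382). For Cebpb both Jak2V617F groups (22.4 ± 0.288 and 22.1 ± 6.12) lay above both Jak2WT groups (9.18 ± 0.515 and 11.97 ± 2.00). For Ddit3 the order ran from Jak2WT GLUT1/3 WT (24.3 ± 1.55) over Jak2V617F GLUT1/3 WT (21.0 ± 1.16) and Jak2WT dKO (18.6 ± 1.16) to Jak2V617F dKO (13.3 ± 3.27).

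Some members share their locus with other genes, and the strand setting of the counting is not given in the sources used here. Atf5 overlaps Nup62 on the opposite strand over 571 bases, and Nup62 lay at 38.6 to 56.4 FPKM. Cebpb overlaps Peds1 on the opposite strand over 908 bases, with Peds1 at 8.61 to 12.2 FPKM. Ddit3 overlaps Mars1 over 68 bases on the opposite strand, with Mars1 at 32.8 to 62.1 FPKM, and it contains the second Ddit3 model on its own strand, where shared reads could be dropped. The levels of these 3 members are uncertain to that extent, while the genes that overlap Ppp1r15a and Sesn2 stayed below 1.69 FPKM.

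Upstream of ATF4, 1 of the 4 eIF2 kinases was higher with dKO in Jak2WT, where 7.62% of all genes were higher. With dKO in Jak2V617F 1 of 4 was higher and 1 lower, where 13.7% of all genes were higher and 16.2% lower, so that no more than a single kinase was called in either direction. Of these kinases, Eif2ak2, the kinase PKR that binds double-stranded RNA, was higher in the dKO clones of both backgrounds, at 26.0 and 26.8 against 20.1 and 18.7 FPKM in Jak2WT (log2 difference 0.43 ± 0.11, adjusted p = 0.0462) and at 27.9 and 35.2 against 15.6 and 15.6 in Jak2V617F (0.96 ± 0.11, adjusted p = 0.00144). Eif2ak1, the heme-regulated kinase HRI, was lower with dKO in Jak2V617F, at 10.5 and 9.10 against 14.0 and 12.1 FPKM (-0.37 ± 0.10, adjusted p = 0.0287), where the difference between the backgrounds did not pass (interaction -0.09 ± 0.14, adjusted p = 0.699). Eif2ak3, the kinase PERK of the endoplasmic reticulum (ER), was lower in Jak2V617F in both GLUT states (-0.43 ± 0.09 and -0.41 ± 0.09), and Eif2ak4, the amino acid sensor GCN2, passed in no comparison, at 3.46 to 5.96 FPKM. Of 5 regulators of the kinases, 3 were higher with dKO in Jak2WT and 0 lower, with a median of 0.45, where 7.62% of all genes were higher. They were Impact, which restrains GCN2, from 5.43 and 5.48 to 9.87 and 8.96 FPKM (0.69 ± 0.12, adjusted p = 0.0138), Oma1, a mitochondrial protease that relays stress to HRI, from 4.17 and 4.68 to 6.24 and 6.62 FPKM (0.45 ± 0.09, adjusted p = 0.0215), and Dnajc3. Dnajc3, which inhibits PERK and PKR and is itself an ER stress gene, rose with dKO in both backgrounds, from 26.6 and 26.9 to 55.5 and 56.8 FPKM in Jak2WT and from 21.7 and 19.6 to 31.5 and 35.9 in Jak2V617F.

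Of the 3 eIF2 subunits tested, 2 were higher in Jak2V617F than in Jak2WT among the GLUT1/3 WT clones, Eif2s1 and Eif2s2, with a median of 0.42, where 15.3% of all genes were higher. Eif2s2, the beta subunit, was higher in the Jak2V617F GLUT1/3 WT clones than in all other libraries. It was at 62.1 and 65.7 FPKM in Jak2WT GLUT1/3 WT, 63.3 and 61.2 in Jak2WT dKO, 126 and 119 in Jak2V617F GLUT1/3 WT and 58.8 and 63.0 in Jak2V617F dKO (interaction -0.96 ± 0.11, adjusted p = 0.00881). Eif2s1, the subunit that the kinases phosphorylate, rose with dKO in Jak2WT, from 45.8 and 51.0 to 68.5 and 65.2 FPKM. Of the 5 subunits of eIF2B, the exchange factor that phosphorylated eIF2 blocks, 1 of 5 passed in any comparison, Eif2b3 with dKO in Jak2WT (0.63 ± 0.12, adjusted p = 0.019), where 7.62% of all genes were higher. Ppp1r15b, the constitutive counterpart of Ppp1r15a, was at 48.1 and 46.0 FPKM in Jak2WT GLUT1/3 WT and at 74.6 and 73.4 in Jak2V617F GLUT1/3 WT, and it fell to 64.7 and 53.0 in Jak2V617F dKO (-0.33 ± 0.10, adjusted p = 0.0485).

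Genes of amino acid supply that ATF4 is known to induce were mostly higher in the Jak2V617F GLUT1/3 WT clones than in Jak2WT GLUT1/3 WT or Jak2V617F dKO clones. Of 15 listed, 14 were tested, but Cth passed the filter through the Jak2V617F GLUT1/3 WT clones alone, so that its difference from them was built in, and it is left out of the counts. Of the other 13, 9 were higher and 0 lower in Jak2V617F than in Jak2WT among the GLUT1/3 WT clones, with a median difference of 0.62, where 15.3% of all genes were higher. With dKO in Jak2V617F, 12 of 13 were lower and 0 higher, with a median of -0.88, where 16.2% of all genes were lower. With dKO in Jak2WT 2 of 13 were higher and 0 lower, with a median of 0.16, where 7.62% of all genes were higher. Among the dKO clones 7 of 13 were lower and 0 higher in Jak2V617F, with a median of -0.39, where 9.96% of all genes were lower. The interaction was negative past the threshold for 9 of the 13 and positive for 0, where 5.91% of all genes were negative. At an unadjusted p under 0.05 in limma, the counts of 0 became 0 lower in the first of these, 0 higher in the second, 2 lower in the third, 0 higher in the fourth and 0 positive in the interaction.

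Asns, asparagine synthetase, was at 72.6 and 73.0 FPKM in Jak2WT GLUT1/3 WT, 72.9 and 65.9 in Jak2WT dKO, 125 and 142 in Jak2V617F GLUT1/3 WT and 47.6 and 57.6 in Jak2V617F dKO. The 2 Jak2V617F groups bracketed both Jak2WT groups, and the fall with dKO was -1.33 ± 0.11 (adjusted p = 0.00055). Slc7a11, the cystine transporter, fell furthest on the log2(FPKM + 1) scale, from 5.61 and 8.85 to 0.936 and 1.58 FPKM (-1.85 ± 0.21, adjusted p = 0.00137). Cth, the enzyme that makes cysteine, was read above 1 FPKM in the Jak2V617F GLUT1/3 WT clones alone, at 1.52 and 2.56 against 0 to 0.114 in the other 6 libraries. Pycr1, of proline synthesis, fell from 4.92 and 6.28 to 1.89 and 2.36 FPKM.

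The 2 genes of this list that rose with dKO in Jak2WT were Slc38a2, a glutamine and alanine transporter, from 34.7 and 33.2 to 51.1 and 53.0 FPKM (0.60 ± 0.11, adjusted p = 0.0165), and Slc7a1, an arginine and lysine transporter, from 29.3 and 30.3 to 38.7 and 38.3 (0.36 ± 0.07, adjusted p = 0.0196). Both fell with dKO in Jak2V617F, Slc38a2 from 62.8 and 77.2 to 37.2 and 41.1 FPKM, with an interaction of -1.42 ± 0.16 (adjusted p = 0.00867). Shmt2, a mitochondrial enzyme of serine use, was the member of the list that did not fall there, at 92.5 and 108 against 103 and 116 FPKM. It was named after its values were seen.

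**Figure D3:**
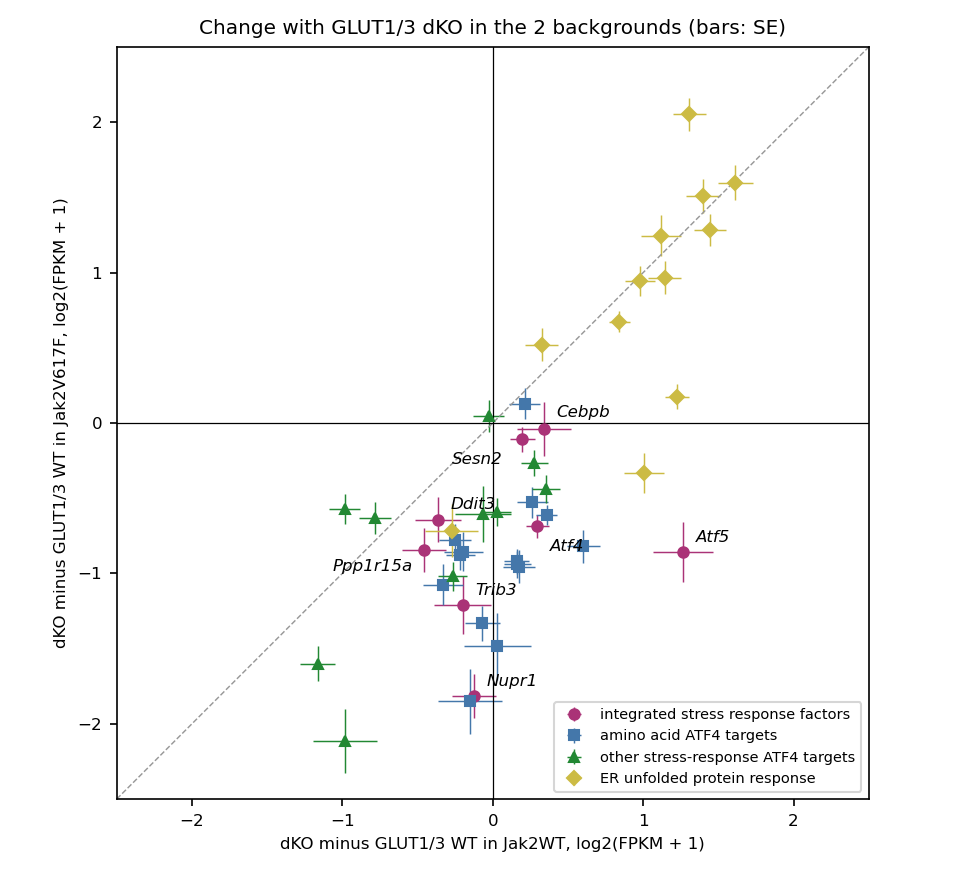
Change with dKO in Jak2WT (horizontal axis) against that in Jak2V617F (vertical axis), both as differences in log2(FPKM + 1), for the members, the ATF4 target lists and the ER response genes, with SE bars and a dashed line of equal change. The amino acid genes and Atf4, Atf5, Trib3 and Nupr1 lie below the dashed line, whereas most ER genes lie high along it, as Creld2 with 1.61 and 1.60.

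Other ATF4 targets of the stress response gave a mixed picture. Of 10 tested of 15 listed, 8 fell and 0 rose with dKO in Jak2V617F, also 0 at an unadjusted p under 0.05 in limma, where 16.2% of all genes fell. With dKO in Jak2WT, 4 fell and 1 rose, where 6.06% of all genes fell and 7.62% rose. Among the GLUT1/3 WT clones, 6 were higher and 1 lower in Jak2V617F, where 15.3% of all genes were higher and 14.9% lower. Ddit4, an mTORC1 inhibitor also induced by hypoxia, fell with dKO in both backgrounds, from 46.5 and 44.2 to 21.7 and 17.8 FPKM in Jak2WT and from 93.6 and 80.3 to 27.2 and 28.6 in Jak2V617F. Ero1a, an oxidase of the ER, fell from 144 and 120.1 to 84.4 and 51.4 FPKM and from 131 and 124 to 27.1 and 30.2. For neither gene was the difference between backgrounds past the threshold (interaction -0.44 ± 0.16, adjusted p = 0.127, and -1.13 ± 0.30, adjusted p = 0.0554). Eif4ebp1, a repressor of cap-dependent translation, was at 38.3 and 38.5 against 34.9 and 28.8 FPKM in Jak2WT and at 57.3 and 56.0 against 27.5 and 27.4 in Jak2V617F (interaction -0.75 ± 0.14, adjusted p = 0.0213). Pmaip1, Vldlr, Stc2, Gdf15 and Fgf21 stayed below 0.48 FPKM in every library.

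The ER branch of the unfolded protein response moved apart from these genes. Its chaperones and folding enzymes are driven mainly by ATF6 and XBP1. Of the 12 genes listed, all tested, 10 rose and 0 fell with dKO in Jak2WT, with a median of 1.13. None fell there at an unadjusted p under 0.05 in limma either, and 7.62% of all genes rose and 6.06% fell. With dKO in Jak2V617F 9 rose and 1 fell, with a median of 0.95, where 13.7% of all genes rose and 16.2% fell. Between the backgrounds, 7 were lower and 2 higher in Jak2V617F among the GLUT1/3 WT clones, where 14.9% of all genes were lower and 15.3% higher. Among the dKO clones 9 were lower and 0 higher in Jak2V617F, also 0 higher at an unadjusted p under 0.05 in limma, where 9.96% of all genes were lower. Hspa5, the chaperone BiP, was at 238 and 247 FPKM in Jak2WT GLUT1/3 WT, 649 and 629 in Jak2WT dKO, 189 and 152 in Jak2V617F GLUT1/3 WT and 472 and 499.6 in Jak2V617F dKO. Both dKO groups lay above both GLUT1/3 WT groups, and the rise was 1.40 ± 0.11 in Jak2WT and 1.51 ± 0.11 in Jak2V617F. Creld2, a cysteine-rich protein of the ER, rose from 32.2 and 32.8 to 93.7 and 109.6 FPKM and from 19.8 and 18.0 to 54.3 and 64.5. Sdf2l1, a cochaperone of BiP, rose by 1.31 ± 0.11 and by 2.05 ± 0.11 (interaction 0.75 ± 0.15, adjusted p = 0.029).

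The ER stress response element, searched as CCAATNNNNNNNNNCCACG on both strands in the same window of 250 bases before to 50 after the start, was found for 5 of these 12 genes, for 0 of the 10 members and for 0.12% of 21770 protein-coding genes. It is shown for Hspa5 and Creld2, which rose in both backgrounds. The ATF4 element was found in the same window for Slc7a11 and Pycr1 of the amino acid genes, for Vldlr and Fgf21 of the other targets and for Herpud1 of the ER genes.
Hspa5, chr2:34662017-34662075, forward strand: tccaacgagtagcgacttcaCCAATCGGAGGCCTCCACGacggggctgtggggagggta
Creld2, chr15:88703703-88703761, forward strand: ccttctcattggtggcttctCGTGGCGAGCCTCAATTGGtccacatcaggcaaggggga

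In Hspa5 the element reads on the strand of the gene, and in Creld2 on the opposite strand. Within the ER list, Herpud1 and Dnajb9, named after their values were seen, rose with dKO in Jak2WT as Hspa5 did, passed in neither direction with dKO in Jak2V617F, and had a negative interaction. Herpud1, of ER-associated degradation, was at 24.7 and 26.5 against 62.5 and 59.8 FPKM in Jak2WT and at 32.4 and 35.3 against 39.1 and 37.5 in Jak2V617F (interaction -1.05 ± 0.12, adjusted p = 0.00867). Dnajb9, a target of XBP1, was at 13.1 and 12.01 against 30.2 and 22.6 and at 20.9 and 21.7 against 16.0 and 17.5 FPKM (-1.33 ± 0.19, adjusted p = 0.013). Ern1, the sensor IRE1, also named after its values were seen, was the gene of the list that fell with dKO in Jak2V617F, from 12.2 and 17.6 to 8.24 and 8.85 FPKM (-0.71 ± 0.17, adjusted p = 0.0208).

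**Figure D4:**
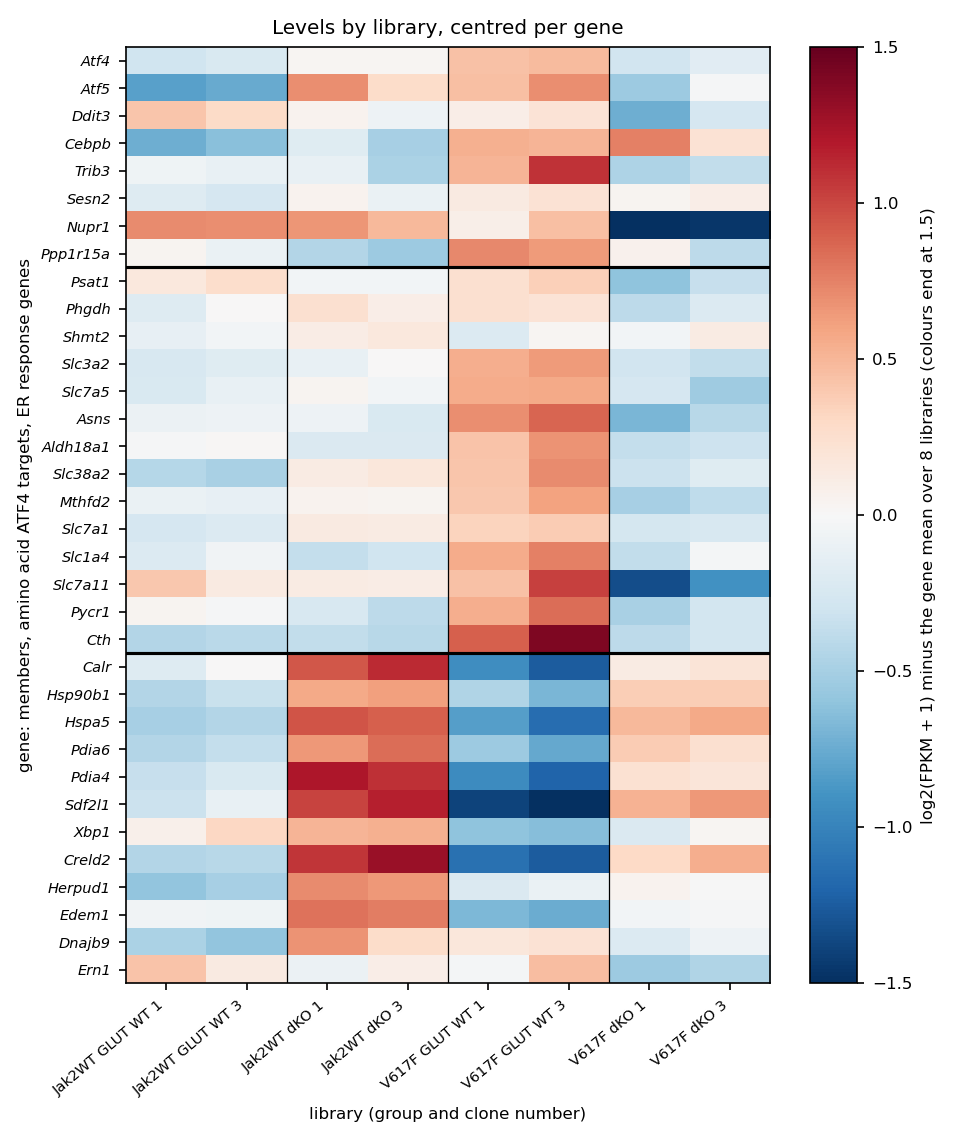
Level of each gene in each library as log2(FPKM + 1) minus the gene's mean over the 8 libraries, with colours that end at 1.5 in either direction, for the members (top), the amino acid ATF4 targets (middle) and the ER response genes (bottom). Most amino acid genes, with Shmt2 as an exception, are highest in the Jak2V617F GLUT1/3 WT libraries, where Hspa5 and Creld2 are lowest, and Nupr1 is lowest in the Jak2V617F dKO libraries.

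Among 11 tested relatives of the bZIP members, 4 fell and 0 rose with dKO in Jak2V617F, with 0 higher also at an unadjusted p under 0.05 in limma, where 16.2% of all genes fell. They were Cebpe, a factor of granulocyte maturation, from 18.0 and 16.3 to 4.20 and 6.80 FPKM, Jdp2, a repressor of AP-1 sites, from 9.37 and 11.1 to 4.70 and 5.24, Cebpg, a partner of ATF4, from 22.8 and 27.6 to 15.7 and 15.6, and Nfe2l1, which raises proteasome genes, from 28.8 and 27.0 to 19.2 and 22.2. The interaction was negative past the threshold for the same 4 genes, where 5.91% of all genes were negative, from -0.68 ± 0.14 (Nfe2l1, adjusted p = 0.0306) to -0.99 ± 0.25 (Cebpe, adjusted p = 0.0484). Cebpe belongs to the granulocyte lineage, and the part of the neutrophil list given above in its change was not tested. Of the paralogs of members, Sesn1 and Chac2 were tested. Chac2 was at 11.6 to 14.1 FPKM in Jak2WT and 17.0 to 22.6 in Jak2V617F, whereas Chac1 was at 0, and Trib1, Trib2 and Sesn3 stayed below 0.65 FPKM.

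Atf3 is also an immediate early gene, and those genes can rise when cells are handled. Of 7 tested, 3 were higher and 0 lower with dKO in Jak2V617F, where 13.7% of all genes were higher and 16.2% lower. With dKO in Jak2WT 2 were higher and 1 lower, where 7.62% were higher and 6.06% lower. In Jak2V617F against Jak2WT, 3 were higher and 0 lower among the dKO clones, where 7.12% of all genes were higher and 9.96% lower. Among the GLUT1/3 WT clones 2 were higher and 2 lower, where 15.3% of all genes were higher and 14.9% lower. The counts of 0 lower were also 0 at an unadjusted p under 0.05 in limma. Btg2, an antiproliferative gene, rose with dKO in both backgrounds, from 6.33 and 5.51 to 9.43 and 8.80 FPKM in Jak2WT (0.55 ± 0.10, adjusted p = 0.0141) and from 14.3 and 13.9 to 19.2 and 21.6 in Jak2V617F (0.50 ± 0.10, adjusted p = 0.00862). Ier2 rose with dKO in Jak2WT, from 34.5 and 37.4 to 55.3 and 56.0 FPKM. Fos lay between 2.28 and 5.35 FPKM and passed in no comparison. Jun fell with dKO in Jak2WT, from 3.79 and 2.78 to 1.96 and 1.20 FPKM, and rose in Jak2V617F, from 2.96 and 3.30 to 4.94 and 5.11 (interaction 1.28 ± 0.24, adjusted p = 0.0227). Dusp1, a MAP kinase phosphatase, rose with dKO in Jak2V617F from 1.96 and 1.41 to 7.46 and 7.94 FPKM. Egr1 stayed below 0.15 FPKM. Of the genes of the table, those whose profile over the 8 libraries was most like that of Atf4, by Pearson r of log2(FPKM + 1), were Aimp1 (0.987), Npm1 (0.983), Lamtor3 (0.980), Eif3i (0.976) and Senp6 (0.976). For Ddit3 they were Prxl2c (0.987), Cnot6l (0.987), Hspa4l (0.982), Gm11451 (0.982) and Gm2a (0.981). The libraries fall into 4 groups of 2 clones, so these values describe likeness of group means and carry no test.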

How the data were processed

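RNA of 8 clones, 2 in each of 4 groups, was sequenced as poly(A) libraries in paired reads. The deposited FPKM values come from the authors' pipeline, in which reads were trimmed by fastp 1.0.1, aligned to mm39 (GRCm39) with HISAT2 2.2.1 and counted per gene with featureCounts 2.0.6, by the methods and processing notes. The annotation version, the strand setting and the library total used for scaling are not given in the sources used here. All 8 value columns were used and 0 left out. FPKM times gene length was a whole multiple of 1 step in each library (100% of values above 0, within 0.01 of a step), so reads per gene could be recovered. They numbered 16846011 to 48884329 per library and served for voom and for limits of detection at 3 reads, which cover counting error only. A count model was not the main test, since the values are FPKM.

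Genes that reached 1 FPKM in 2 or more libraries (11818 of 56748) were tested with limma 3.58.1 (R 4.3.3) on log2(FPKM + 1), with 1 mean per group in a single fit, a trended prior, and Benjamini-Hochberg adjustment over all genes. The fit had 4 residual and 3.34 prior degrees of freedom. An exact permutation test of 2 against 2 clones cannot go below 0.333 (two-sided), so none was used. The members and lists were chosen with earlier results of these data known. In each list and comparison of 2 groups, up to 4 genes with the largest log2 difference past the threshold and without overlap of clones could be named. Genes named outside this rule (Shmt2, Herpud1, Dnajb9, Ern1, Fos, Eif2ak4, and genes that were not tested) were chosen after their values were seen, and for Atf4 and Ddit3 the 5 most alike genes were named. The test was also run on simulated data with known changes, drawn with 1 dispersion for all genes (0.00509). For dKO in Jak2V617F it recovered 60.3% of 1.5-fold, 92.3% of 2-fold and 100% of 4-fold changes, with 5 calls on unchanged genes. Changes of about 1.5-fold could thus be missed. Promoters were read from the GRCm39 genome at the canonical starts of GENCODE, which differ from the deposited coordinates for several members. The gaps were largest for Atf3 (start at 190915537, deposited end at 190950236) and Nupr1 (126224848 and 126230033), both on the reverse strand. Alternatives were a pseudocount of 0.1, no filter, 2 library scalings, voom, fits restricted to the compared groups, a replicate block and leaving out each library. Python 3.11.15, pandas 2.3.3 and matplotlib 3.10.9 were used for tables and figures. A further transgene shared by all groups and 1 marker gene are not reported here.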

Additional observations from a re-analysis of the deposited data

Results flagged for a closer look

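The change with GLUT1/3 dKO differed between the Jak2V617F and Jak2WT backgrounds by the test of the difference itself for 3 of the 8 members tested. Of all genes, 5.91% had a negative and 4.72% a positive interaction past the threshold. Each of the 3 calls was lost in 3 of 14 alternatives. The interaction was -2.12 for Atf5, -1.69 for Nupr1 and -0.98 for Atf4 on the log2(FPKM + 1) scale, with limma adjusted p-values of 0.0116, 0.00959 and 0.00867. Atf4 and Atf5 were higher with dKO in Jak2WT and lower in Jak2V617F, whereas Nupr1 was lower in Jak2V617F and differed by -0.13 (95% interval -0.47 to 0.21) in Jak2WT. The call on the rise of Atf4 in Jak2WT was lost in 10 of 15 alternatives. With a pseudocount of 0.1 the interaction of Nupr1 was -3.20. The summed FPKM of the erythroid genes rose with dKO in both backgrounds. It went from 63.1 to 83.2 up to 221 to 262 in Jak2WT and from 505 to 852 up to 2548 to 4638 in Jak2V617F. That of the macrophage genes was 21.9 to 26.4 in the Jak2V617F dKO libraries and 52.2 to 72.9 in the other 6. The part of these lists in the interaction was not tested.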

How the results depend on the processing

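Of 40 member values tested, 20 were called, and all 20 kept their direction in every one of 15 alternatives (14 for the interaction). Of these, 13 remained past the threshold in every alternative that kept all libraries and 8 in all alternatives, while 7 of the 20 values not called passed in at least 1. The counts with dKO in Jak2V617F (6 lower, 0 higher) were 4 lower with no filter and with only the groups compared, and 4 to 6 lower and 0 higher over the fits without 1 library.

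For dKO in Jak2WT, 2 members were higher, against 1 with no filter, with libraries scaled to the same total, with voom and with the replicate block, and 0 to 2 without 1 library. The 0 lower became 1 with the same total and the replicate block, 2 with voom and with only the groups compared, and 0 to 2 without 1 library. For Jak2V617F against Jak2WT in GLUT1/3 WT, the 6 higher became 5 with no filter and with the same total and 3 to 6 without 1 library, and the 0 lower became 1 with the same total and voom and 0 to 1 without 1 library. Among the dKO clones, the 1 higher became 0 with no filter and with only the groups compared and 0 to 2 without 1 library. The 2 lower became 1 with no filter, the same total, only the groups compared and the replicate block, and 1 to 3 without 1 library. The 3 negative interactions became 0 to 4 without 1 library. In such fits the lone clone is assumed to vary like the others.

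Values not called changed direction for Cebpb with dKO in Jak2V617F (0.048 with the same total, 0.074 with voom, -0.31 to 0.23 without 1 library, the latter without Jak2V617F dKO clone 3) and for Trib3 in Jak2V617F against Jak2WT among dKO clones (-0.31 to 0.053 without 1 library, the latter without Jak2WT dKO clone 1). The causes were not tested. The same total moved the median of all genes by -0.13 for Jak2V617F against Jak2WT in GLUT1/3 WT and by 0.16 for the interaction, and voom by -0.11 and 0.15.

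Clone numbers are shared between groups only as numbers. Deviations of same-numbered clones correlated from -0.25 to 0.15, so the numbers were not taken to pair the clones. The replicate block called 742 higher and 581 lower genes for dKO in Jak2WT, against 901 and 716 without it. The fits without 1 library called 3 to 754 genes with a negative interaction, against 698. The gene lists beyond the members were tested in the fit on log2(FPKM + 1) alone.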
